A study of Homo sapiens with 6 samples.

Results

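The 10 genes described here code for cohesin, the ring-shaped complex that holds sister chromatids together, for its loader NIPBL, its regulators PDS5A, PDS5B and ESCO2, and for separase (ESPL1), the protease that opens the ring at anaphase. They were taken by symbol from a deposited table of 36651 genes, and all 10 were found in it. PolyA RNA of HCT116, an established human colorectal carcinoma line of epithelial morphology, was sequenced in 3 control libraries and 3 libraries labelled siMTA1. The control libraries are called wild type in their titles, and the siMTA1 libraries carry the name CrMTA1 in theirs, which the labels do not explain. Every library also carries the tag 3rd, likewise unexplained, and the descriptions of the siMTA1 libraries read siMTA where their column names read siMTA1. Neither the way in which MTA1 was lowered nor the agent given to the controls is stated in the sources used here, no dose or time is given, and nothing says that replicates came from separate cultures, so p-values reflect the spread among these libraries alone, which may be technical.

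Cohesin is built from the ATPases SMC1A and SMC3, the kleisin RAD21 that closes the ring between them, and STAG1 or STAG2, which bind RAD21. NIPBL, with MAU2, loads the ring onto DNA and drives it to extrude chromatin loops, which CTCF can halt. During replication ESCO2 acetylates SMC3 and sororin (CDCA5) then guards the ring against its release factor WAPL. Both PDS5 proteins take part in release and in protection. At anaphase separase, freed from securin (PTTG1), cuts RAD21. STAG2 is known as a recurrently mutated gene in several cancers.

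The values are FPKM, fragments scaled to the length of the gene and to the mapped fragments of the library. The depth implied by regular steps among low values of short genes was 42900000 to 65400000 fragments in the controls and 57200000 to 66700000 in the siMTA1 libraries. MTA1, the targeted gene, had control values of 65.90, 67.61 and 66.74 FPKM and siMTA1 values of 44.55, 43.98 and 47.97 FPKM, here and below in the order of libraries 1, 2 and 3, so that 68.2% of its control level remained (log2 fold change −0.54, SE 0.06, limma adjusted p = 0.000376, and p = 0.1 in an exact two-sided permutation test, the lowest value that 3 libraries against 3 can give). Of the 6 epithelial markers, 5 reached a mean of 1 FPKM, and KRT19 had the highest mean, 3426 FPKM. The marker that did not was VIL1, an intestinal gene, at 0 to 0.04 FPKM. The summed markers of fibroblasts (5 of 6 in the table, DCN at 0) came to 1.94 to 2.01 FPKM in control and 2.17 to 2.76 FPKM with siMTA1, almost wholly COL1A1 at a mean of 2.13 FPKM. Summed markers of leukocytes (4 of 5 in the table, PTPRC absent) and endothelium stayed at or below 0.19 and 0.28 FPKM in every library.

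No cohesin gene passed the test. Genes averaging 1 FPKM or more were compared on log2(FPKM + 1) with limma, and an adjusted p under 0.05 over 12141 genes was called a change. All 10 cohesin genes were tested and 0 were called, against 18.2% of all tested genes, 6.13% higher and 12.1% lower with siMTA1. At an unadjusted limma p under 0.05 there were 2 of the 10 (SMC1A and ESPL1), or 20%, against 35.05% of all tested genes. The split over all genes depended on scaling: it was 744 higher and 1463 lower as reported, and 1128 and 802 after median centring. Calls among the 10 also depended on processing. SMC1A and ESPL1 were called higher with quantile normalization, upper-quartile scaling, TPM or median centring, and with the replicate number as a block. The fold changes of the 10 genes lay between −0.09 for PDS5A and 0.22 for ESPL1 on the log2 scale, with a median of 0.07 beside −0.05 for all tested genes. Values of the groups did not overlap for SMC1A, ESPL1 and ESCO2, all 3 higher with siMTA1. Over all tested genes, 39.1% did not overlap, 13.2% being higher and 25.9% lower with siMTA1.

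**Figure D1:**
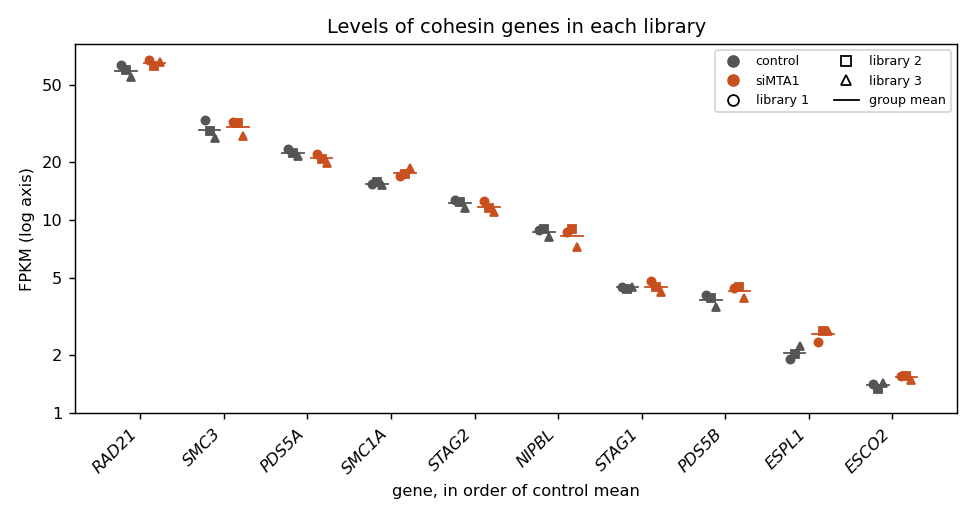
FPKM (log axis) of the 10 cohesin genes in each of the 6 libraries, in order of the control mean, with control in grey, siMTA1 in orange, a symbol for each library number and a bar at each group mean. RAD21 stands highest, at 54.95 to 66.81 FPKM, and ESCO2 lowest, at 1.33 to 1.57 FPKM.

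By FPKM, which is scaled to the length of the gene, the order of levels was RAD21, SMC3, PDS5A, SMC1A, STAG2, NIPBL, STAG1, PDS5B, ESPL1 and ESCO2 in control. No neighbours in that order had overlapping values among the 3 control libraries. In the siMTA1 libraries STAG1 and PDS5B overlapped, and no other neighbours did. The constitutive ring subunits thus differed in FPKM among themselves: RAD21 had a mean of 59.2 ± 4.11 FPKM in control (SD, n = 3), SMC3 29.4 ± 3.29 and SMC1A 15.4 ± 0.265. The gene lengths behind the values are not given, and the order between genes rests on them. At GENCODE 29 exon lengths of 10484 bases for SMC1A and 4275 for SMC3, the control libraries held 6890, 9315 and 10388 implied fragments of SMC1A. SMC3 had 6034, 6976 and 7381.

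SMC1A, an ATPase of the ring, is found on the minus strand of chromosome X, from 53374149 to 53422728 (GRCh38, ENSG00000072501.17). The control libraries read 15.32, 15.67 and 15.15 FPKM and the siMTA1 libraries 16.89, 17.24 and 18.57 FPKM. Every siMTA1 library was above every control library. The means were 15.4 ± 0.265 and 17.6 ± 0.886 FPKM (SD, n = 3 each), a ratio of 1.14, and the log2 fold change was 0.18 (95% interval 0.05 to 0.31, limma adjusted p = 0.0555). That value lay just outside the threshold, and it fell inside it, with the same direction, in 8 of 20 alternative ways of processing. With quantile normalization, for instance, the fold change was 0.22 (limma adjusted p = 0.0294), and over all alternatives the adjusted p from limma ran from 0.0242 to 0.15. It passed in none of the 6 fits that left out a library.

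SMC3, the partner ATPase and the subunit that ESCO2 acetylates, is found on the plus strand of chromosome 10, from 110567691 to 110604636. It was at 32.90, 28.78 and 26.40 FPKM in control and at 31.97, 31.83 and 27.14 FPKM with siMTA1. The groups overlapped, and the spread within each was wide, with an SD of 11.2% of the mean in control, the largest of the 10 genes there. The log2 fold change was 0.05, with a 95% interval of −0.15 to 0.25 (limma adjusted p = 0.744). RAD21, the kleisin that separase cuts, was at 63.14, 59.64 and 54.95 FPKM in control and at 66.81, 62.57 and 65.35 FPKM with siMTA1. Control library 1 lay above the lowest siMTA1 library, so the groups overlapped. The log2 fold change was 0.13 (95% interval −0.01 to 0.27, limma adjusted p = 0.171). In GENCODE 29 the exons of RAD21 overlap those of UTP23 on the opposite strand over 8.37% of their length, and the sources used here do not say whether strand was used in counting.

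The ratio of SMC1A to SMC3 within a library was 0.528 ± 0.056 in control and 0.585 ± 0.0864 with siMTA1 (SD, n = 3 each), and that of RAD21 to SMC3 was 2.02 ± 0.0912 and 2.15 ± 0.228. Both overlapped between the groups (exact two-sided permutation p = 0.6 and p = 0.4, n = 3 each). In all, 8 ratios were tested, and every p adjusted over them was 0.4 or more.

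STAG1 and STAG2 are alternative subunits of the ring. STAG1 is on chromosome 3 from 136336233 to 136752403 on the minus strand, and STAG2 on the plus strand of chromosome X, from 123960212 to 124422664. STAG1 was at 4.52, 4.40 and 4.53 FPKM in control and at 4.84, 4.53 and 4.22 FPKM with siMTA1. STAG2 was at 12.66, 12.37 and 11.57 FPKM in control and at 12.56, 11.52 and 11.03 FPKM with siMTA1. The groups overlapped for both genes. The log2 fold changes were 0.01 for STAG1 (95% interval −0.13 to 0.15, limma adjusted p = 0.919) and −0.06 for STAG2 (−0.20 to 0.09, limma adjusted p = 0.571). STAG2 exceeded STAG1 in every library, with a ratio of 2.72 ± 0.146 in control and 2.58 ± 0.0366 with siMTA1 (SD, n = 3 each, exact two-sided permutation p = 0.3). Exons of PCCB, on the opposite strand, overlap 21.2% of the exon length of STAG1, and PCCB had a mean of 4.46 FPKM, so the level of STAG1 is uncertain if strand was not used in counting.

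The loader NIPBL, on the plus strand of chromosome 5, from 36876759 to 37066413, was at 8.84, 8.93 and 8.14 FPKM in control and at 8.67, 8.94 and 7.22 FPKM with siMTA1. Library 3 was the lowest of each group. The log2 fold change was −0.06 (95% interval −0.24 to 0.12, limma adjusted p = 0.630). Its partner MAU2 was at 3.24, 3.96 and 4.12 FPKM in control and at 3.34, 3.20 and 3.26 FPKM with siMTA1, a log2 fold change of −0.16 (limma adjusted p = 0.184). Control library 1 alone lay within the siMTA1 range, and without it the fold change of MAU2 was −0.24 (limma adjusted p = 0.0429). MAU2 also passed with array weights over all 6 libraries (−0.20, limma adjusted p = 0.0239), which made 2 of 19 alternatives. The ratio of NIPBL to MAU2 was 2.32 ± 0.38 and 2.53 ± 0.294 (SD, n = 3 each, exact two-sided permutation p = 0.5).

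PDS5A and PDS5B are paralogs that bind the ring with WAPL or sororin. PDS5A, on chromosome 4 from 39822863 to 39977956 on the minus strand, was at 23.26, 22.09 and 21.46 FPKM in control and at 21.92, 20.65 and 19.81 FPKM with siMTA1. PDS5B, on the plus strand of chromosome 13, from 32586427 to 32778019, was at 4.09, 3.95 and 3.56 FPKM in control and at 4.44, 4.52 and 3.97 FPKM with siMTA1. Each gene overlapped between the groups, and their point estimates lay on opposite sides of 0. The log2 fold changes were −0.09 for PDS5A (95% interval −0.23 to 0.04, limma adjusted p = 0.290) and 0.13 for PDS5B (−0.03 to 0.28, limma adjusted p = 0.232). Taken as a ratio within a library, PDS5A to PDS5B was 5.69, 5.59 and 6.03 in control and 4.94, 4.57 and 4.99 with siMTA1. All 3 siMTA1 ratios were below all 3 control ratios, a log2 difference of −0.26. The exact two-sided permutation test gave p = 0.1, the smallest possible with n = 3 in each group, and 0.4 after adjustment over the 8 ratios.

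**Figure D2:**
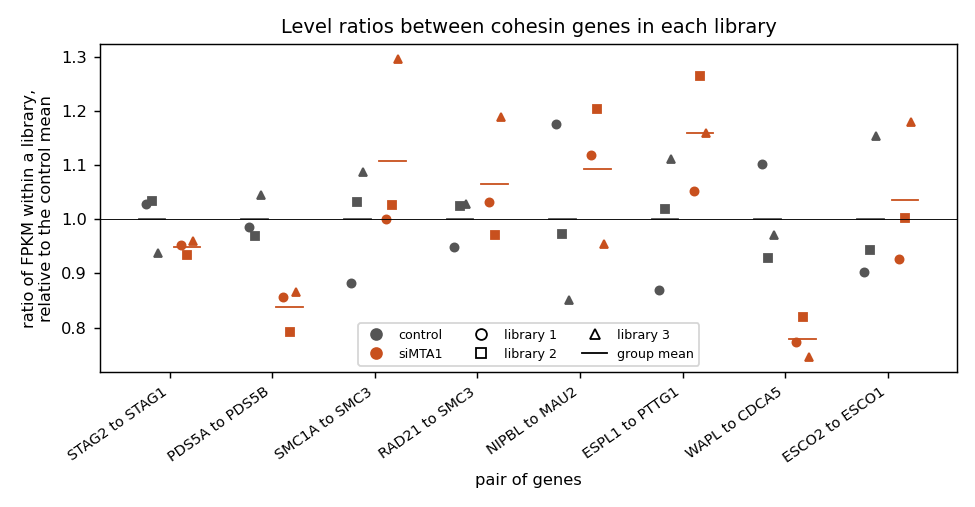
Ratio of the FPKM of 2 genes within each library, divided by its mean over the control libraries, for 8 pairs (control grey, siMTA1 orange, a symbol for each library number, bars at group means). The groups do not overlap for PDS5A to PDS5B and for WAPL to CDCA5, both lower with siMTA1, and overlap for the other 6 pairs. Every exact permutation p, adjusted over the 8 ratios, was 0.4 or more.

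ESPL1, which codes for separase, had the largest fold change of the 10 genes. It is found on the plus strand of chromosome 12, from 53268299 to 53293643 (GRCh38, ENSG00000135476.11). The control libraries read 1.90, 2.04 and 2.22 FPKM and the siMTA1 libraries 2.35, 2.66 and 2.67 FPKM. All siMTA1 libraries were above all control libraries, and the gap between the groups, from 2.22 to 2.35 FPKM, was narrower than the range within either. The means were 2.05 ± 0.16 and 2.56 ± 0.182 FPKM (SD, n = 3 each), a ratio of 1.25. The log2 fold change was 0.22 on the log2(FPKM + 1) scale (95% interval 0.06 to 0.38, limma adjusted p = 0.0573), and 0.31 with a pseudocount of 0.1 (limma adjusted p = 0.0582). At the implied depths and the exon length of GENCODE 29 these levels stand for 725 to 1577 fragments a library, with a counting error of 2.52% to 3.71%. ESPL1 passed in 8 of 19 alternatives, such as median centring (log2 fold change 0.28, limma adjusted p = 0.0286), and in none of the 6 fits that left out a library (limma adjusted p = 0.0569 to 0.157). With no filter on low values its adjusted p was 0.184.

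**Figure D3:**
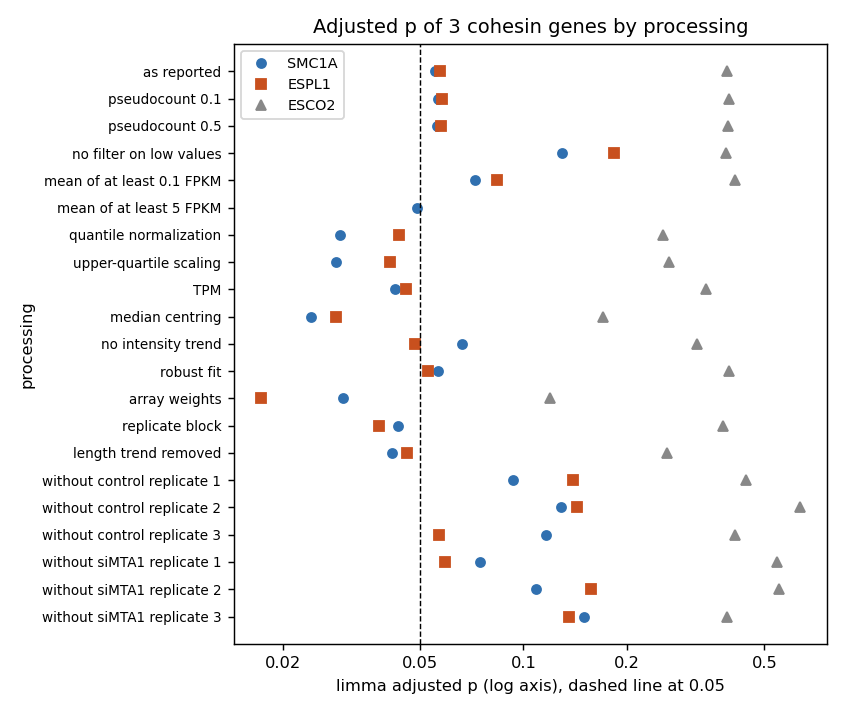
Adjusted p from limma (log axis, dashed line at 0.05) of SMC1A, ESPL1 and ESCO2, the 3 genes whose groups do not overlap, as reported and under each alternative. ESPL1 has no value where a mean of 5 FPKM was required, and neither has ESCO2. SMC1A spans 0.0242 to 0.15 and ESPL1 0.0173 to 0.184 around the line, whereas ESCO2 is at 0.119 or above throughout.

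Securin, the inhibitor of separase coded by PTTG1, was at 55.11, 50.54 and 50.37 FPKM in control and at 56.30, 53.10 and 58.12 FPKM with siMTA1, with a log2 fold change of 0.10 (limma adjusted p = 0.265). PTTG1 has near-identical copies elsewhere in the genome, so its level is uncertain. The ratio of ESPL1 to PTTG1 was 0.0396 ± 0.00484 in control and 0.0459 ± 0.00418 with siMTA1 (SD, n = 3 each), with overlap between the groups (exact two-sided permutation p = 0.2). Among 7081 other genes averaging 5 FPKM or more, those whose log2(FPKM + 1) followed ESPL1 most closely over the 6 libraries included HDAC1 (Pearson's r = 0.994) and CALM3 (r = 0.993). The genes closest to RAD21 were PCMT1, MSI2 and ZSCAN16, with r of 0.9898, 0.9896 and 0.9891. These correlations describe 6 libraries that fall into the same 2 groups for every gene.

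The promoter of ESPL1 is shown because it carries a pair of elements known from genes expressed late in the cell cycle. These are the CCAAT box and the cell cycle homology region, or CHR, searched here as TTTGAA or TTTAAA. The windows run from 250 bases before to 50 bases after the RefSeq start (GRCh38.p14), matches on either strand are in capitals, and E2F motifs (TTTGGCGC, TTTCCCGC, TTTCGCGC or TTTGCCGC) were searched as well. PDS5B is shown as the other cohesin gene with both elements, and the mitotic kinase gene PLK1, which rose, beside them. Both elements together are held by 9.27% of all 35116 promoters, and their share among tested genes alone was not computed. The windows shown are chr12:53268049-53268348 on the plus strand for ESPL1, chr13:32586202-32586501 on the plus strand for PDS5B, and chr16:23678639-23678938 on the plus strand for PLK1.
ESPL1: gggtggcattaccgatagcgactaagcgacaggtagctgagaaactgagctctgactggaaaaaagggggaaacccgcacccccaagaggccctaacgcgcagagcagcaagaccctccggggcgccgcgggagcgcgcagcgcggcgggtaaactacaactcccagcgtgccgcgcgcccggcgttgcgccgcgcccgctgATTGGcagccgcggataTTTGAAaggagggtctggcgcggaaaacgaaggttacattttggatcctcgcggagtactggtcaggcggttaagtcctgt
PDS5B: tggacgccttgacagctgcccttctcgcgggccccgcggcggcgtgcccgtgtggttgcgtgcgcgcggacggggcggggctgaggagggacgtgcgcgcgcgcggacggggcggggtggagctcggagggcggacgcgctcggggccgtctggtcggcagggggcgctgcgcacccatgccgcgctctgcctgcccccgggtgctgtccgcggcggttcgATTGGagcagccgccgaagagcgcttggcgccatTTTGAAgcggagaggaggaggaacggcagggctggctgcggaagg
PLK1: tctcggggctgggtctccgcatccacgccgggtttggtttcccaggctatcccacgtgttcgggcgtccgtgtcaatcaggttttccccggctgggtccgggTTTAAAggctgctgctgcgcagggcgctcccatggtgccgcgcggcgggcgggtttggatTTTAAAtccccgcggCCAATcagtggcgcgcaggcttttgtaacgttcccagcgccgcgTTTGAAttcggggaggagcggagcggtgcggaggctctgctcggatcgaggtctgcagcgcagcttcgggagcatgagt

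In ESPL1 the reverse complement of CCAAT begins 48 bases and TTTGAA 31 bases before the start. In PLK1, CCAAT begins 73 bases and the last of 3 CHR matches 29 bases before it. PDS5B is arranged otherwise: the reverse complement of CCAAT begins 29 bases before the start, but TTTGAA begins after the start, at base 6. RefSeq promoters were at hand for 8 of the 10 cohesin genes, in 11 windows, since SMC1A and STAG2 have several starts. A CHR match was in 3 of the 11 windows (SMC3, PDS5B and ESPL1), beside 24.0% of all 35116 promoters and 16.1% of those of tested genes. A CCAAT match was in 6 of the 11, beside 34.6% of all promoters and of those of tested genes alike. An E2F match was in 4 of the 11 (SMC1A, STAG1, STAG2 and NIPBL), beside 3.31% of all promoters and 5.05% of those of tested genes. These matches are letters in a window and no measure of binding.

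SMC1A, the other gene near the threshold, and the sororin gene CDCA5, which rose, are shown for their E2F matches, which begin 20 and 45 bases before the start. The windows are chrX:53422605-53422904 on the minus strand, from the second RefSeq start of SMC1A, and chr11:65083991-65084290 on the minus strand. The window at the first start of SMC1A held no match to any motif. PLK1, CHTF18 and CTCF, which also rose, had no E2F match. STAG1, STAG2 and NIPBL had E2F matches and log2 fold changes of 0.01, −0.06 and −0.06. Whether the matches go with the fold changes was not tested.
SMC1A: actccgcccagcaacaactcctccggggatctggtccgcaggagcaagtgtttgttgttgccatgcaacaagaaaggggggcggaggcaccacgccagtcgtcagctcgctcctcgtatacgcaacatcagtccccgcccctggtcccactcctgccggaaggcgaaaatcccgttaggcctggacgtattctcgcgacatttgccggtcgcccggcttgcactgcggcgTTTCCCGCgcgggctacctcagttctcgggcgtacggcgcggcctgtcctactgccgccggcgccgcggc
CDCA5: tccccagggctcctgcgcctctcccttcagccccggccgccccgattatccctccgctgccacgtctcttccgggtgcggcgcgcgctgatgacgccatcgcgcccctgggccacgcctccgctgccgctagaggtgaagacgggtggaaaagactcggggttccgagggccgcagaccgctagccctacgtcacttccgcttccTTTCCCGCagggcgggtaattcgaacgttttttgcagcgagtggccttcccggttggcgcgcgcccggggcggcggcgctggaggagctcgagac

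ESCO2, the acetyltransferase that establishes cohesion during replication, was at 1.42, 1.33 and 1.44 FPKM in control and at 1.57, 1.57 and 1.48 FPKM with siMTA1. The groups did not overlap, but their nearest values were 1.44 and 1.48 FPKM. The log2 fold change was 0.08 (95% interval −0.06 to 0.23, limma adjusted p = 0.391). ESCO2 was the lowest of the 10 genes, at 486 to 835 implied fragments a library, where counting alone gives an error of 3.46% to 4.54%, and its means differed by 10.3%. ESCO1, the acetyltransferase that also acts outside replication, was at 11.67, 10.47 and 9.27 FPKM in control and at 12.59, 11.62 and 9.32 FPKM with siMTA1 (log2 fold change 0.08, limma adjusted p = 0.620). HDAC8, which removes the acetyl group from SMC3, had a log2 fold change of −0.05 (limma adjusted p = 0.563).

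Among 21 further genes of the cohesin pathway, 18 were tested, of which 4 rose and 0 fell with siMTA1, or 22.2% called beside 18.2% of all tested genes in either direction and 6.13% higher. The median log2 fold change of the 18 was 0.11. The 4 were CDCA5, PLK1, CHTF18 and CTCF.

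CDCA5, which codes for sororin, was at 6.03, 6.93 and 6.54 FPKM in control and at 8.80, 7.98 and 9.15 FPKM with siMTA1. Every siMTA1 value exceeded every control value (log2 fold change 0.36, SE 0.07, limma adjusted p = 0.00882). WAPL, the release factor that sororin opposes and that the table lists as WAPAL, was at 13.71, 13.27 and 13.09 FPKM and at 14.05, 13.50 and 14.07 FPKM (log2 fold change 0.05, 95% interval −0.07 to 0.17, limma adjusted p = 0.532). The ratio of WAPL to CDCA5 was between 1.91 and 2.27 in control and between 1.54 and 1.69 with siMTA1, with no overlap (log2 difference −0.36, exact two-sided permutation p = 0.1, n = 3 each, and 0.4 adjusted over the 8 ratios). The call of CDCA5 held without each of the 6 libraries and ended with no filter on low values (limma adjusted p = 0.098).

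PLK1, a mitotic kinase that strips cohesin from chromosome arms, was at 14.86, 16.79 and 17.19 FPKM in control and at 20.92, 19.32 and 21.21 FPKM after siMTA1 (a log2 fold change of 0.32, SE 0.07, limma adjusted p = 0.0142). CHTF18, of the clamp loader that acts in cohesion at the replication fork, was at 7.34, 7.47 and 7.54 FPKM and at 9.09, 9.32 and 8.73 FPKM (log2 fold change 0.25, SE 0.06, limma adjusted p = 0.0152). CTCF, the DNA-binding protein at which cohesin halts, was at 15.13, 15.66 and 14.95 FPKM and at 17.70, 17.71 and 18.13 FPKM (log2 fold change 0.21, SE 0.05, limma adjusted p = 0.0225). All 3 genes were free of overlap between the groups. The call of PLK1 ended with no filter on low values (limma adjusted p = 0.126). That of CHTF18 ended without control library 2 (limma adjusted p = 0.0609) and without siMTA1 library 2 (limma adjusted p = 0.0567). For CTCF the adjusted p from limma reached 0.0639 or 0.0577 on leaving out control library 2 or 3, and 0.0558, 0.0624 or 0.0594 on leaving out siMTA1 library 1, 2 or 3. SGO1, the guardian of centromeric cohesion, listed as SGOL1, had a log2 fold change of 0.06 (limma adjusted p = 0.621).

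**Figure D4:**
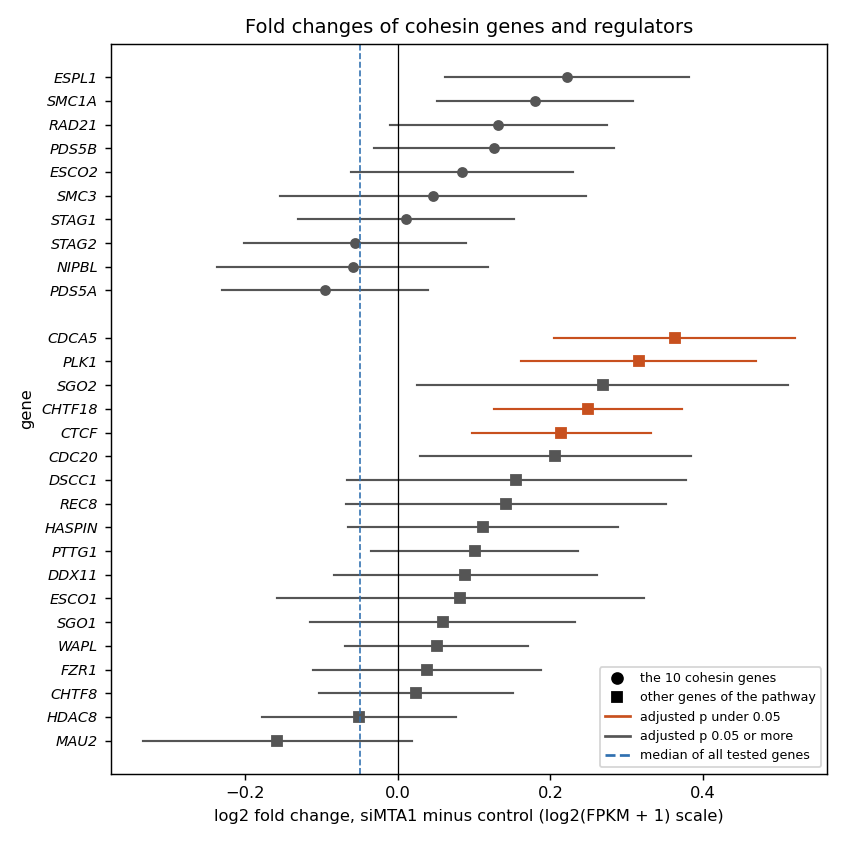
Log2 fold change, siMTA1 minus control, with unadjusted 95% intervals from limma for the 10 cohesin genes (circles) and 18 other tested genes of the pathway (squares), orange where the adjusted p is under 0.05. The dashed line is the median of all tested genes, −0.05. No circle is orange, and CDCA5, PLK1, CHTF18 and CTCF are.

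Cell cycle genes stood beside these values as follows. Of 14 genes expressed in G2 and mitosis, 8 rose and 0 fell, with a median of 0.31 on the log2 scale, where 6.13% of all tested genes rose. The proliferation marker MKI67 had means of 28.6 ± 1.03 and 43.5 ± 1.77 FPKM in the controls and with siMTA1, and the kinase AURKB 26.4 ± 0.647 and 35.6 ± 0.524 FPKM (SD, n = 3 each). Of 14 genes of the G1/S transition, 1 rose and 0 fell, with a median of 0.09. It was CDC6, at 8.51 ± 0.275 and 10.8 ± 0.478 FPKM, and RRM2 followed with a log2 fold change of 0.32 (limma adjusted p = 0.0536). The part of the cell cycle in the values of ESPL1, SMC1A, CDCA5 and PLK1 was not tested. Bulk samples cannot tell more cells of a phase from more RNA per cell.

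Counts for the related SMC complexes stand beside 6.13% of all tested genes higher and 12.1% lower. Of the 8 condensin genes, 4 (50%) rose and 0 fell (median 0.21), led by NCAPG2 (log2 fold change 0.52, limma adjusted p = 0.00117) and NCAPH (0.37, limma adjusted p = 0.00568). Of 6 tested genes of the SMC5/6 complex, 1 (16.7%, near the background) fell and 0 rose (median −0.07). It was NSMCE1 (−0.18, limma adjusted p = 0.0463), whose call ended without any single library, such as siMTA1 library 2 (limma adjusted p = 0.152), and under every scaling alternative, and NSMCE3 had a log2 fold change of −0.18 (limma adjusted p = 0.0550). The call of NCAPH ended with no filter on low values (limma adjusted p = 0.0540). Whether the 10 cohesin genes differ from either complex was not tested.

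**Figure D5:**
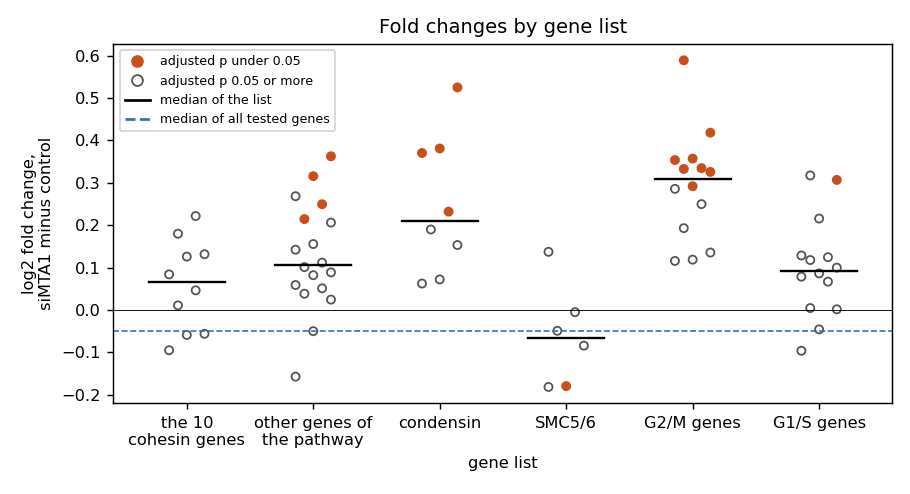
Log2 fold change, siMTA1 minus control, of each tested gene in 6 gene lists, filled orange where the limma adjusted p is under 0.05, with a bar at the median of each list and a dashed line at the median of all tested genes. The 10 cohesin genes lie between −0.09 and 0.22 with a median of 0.07, and the 14 genes of G2 and mitosis have a median of 0.31.

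Control library 3 had the lowest control value for 7 of the 10 genes, beside 32.9% of all tested genes, and siMTA1 library 3 the lowest siMTA1 value for 7 of the 10, beside 30.2%. The other 3 genes in control (STAG1, ESPL1 and ESCO2) were highest in library 3, and with siMTA1 SMC1A and ESPL1 were highest there. Library 1 was the highest for 5 of the 10 in control and 6 of the 10 with siMTA1, beside 38.6% and 32.7% of all tested genes. Ties were counted as highest, and the 6 include ESCO2, at 1.57 FPKM in siMTA1 libraries 1 and 2 alike. Within-group SD ranged from 1.61% of the mean for STAG1 to 11.2% for SMC3 in control, and from 3.32% for RAD21 to 11.2% for NIPBL with siMTA1.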

How the data were processed

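The authors deposited 1 table of FPKM per gene and library, printed to 2 decimals. The submitters' processing notes name cutadapt, TopHat2, edgeR and GRCh38, without versions or roles. The sources used here do not give the annotation release, gene lengths, strand counting or depth. Depth was inferred by setting the commonest lowest step of genes under 150 bases to 1 fragment (tolerance 0.04). Of the low values, 94.6% to 97.4% were then whole within 0.05 of a fragment beyond rounding. The depth was chosen on values of the same genes, so that share is no separate check of it. Coordinates and exon lengths are those of GENCODE 29, matched by gene identifier without its version.

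Genes averaging 1 FPKM or more were tested with limma 3.58.1 in R 4.3.3 on log2(FPKM + 1), with an intensity trend, two-sided, without covariates, and adjusted by Benjamini and Hochberg over all tested genes. Fold changes on this scale understate those of low genes. Intervals are unadjusted. The fit was run on simulated normal values with the means and SDs of the tested genes, which checks the code and not whether the model holds. Ratios were tested by exact permutation of the 6 libraries. Named were MTA1, the 10 genes, pathway genes that passed plus MAU2, WAPL, CDCA5, ESCO1, PTTG1, SGO1 and HDAC8, up to 2 genes of each other list with the smallest adjusted p, and the 3 genes most like ESPL1 and RAD21, of which 1 is not reported here. The genes, lists and tests were chosen with earlier results of these data known. Alternatives were other pseudocounts, filters, scalings and limma settings, the replicate number as a block, removal of a length trend (chosen after the data were seen) and each library left out. Python 3.11.15, pandas 2.3.3 and matplotlib 3.10.9 were used for tables and figures.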

Additional observations from a re-analysis of the deposited data

How the results depend on the processing

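The number of the 10 cohesin genes called was 0 as reported and with each library left out. It was 2, both higher (SMC1A and ESPL1), with quantile normalization, upper-quartile scaling, TPM, median centring, array weights, the replicate block and the length trend removed. It was 1, higher, where a mean of 5 FPKM was required (SMC1A) and with no intensity trend (ESPL1). No alternative called a member lower. Over all tested genes 572 were called with no filter on low values (262 higher, 310 lower) and 4049 with array weights (1434 higher, 2615 lower). Lower calls were 895 with quantile normalization, 939 with upper-quartile scaling and 850 with the length trend removed, and median centring gave 1128 higher and 802 lower. With a library left out, 1046 to 1773 genes were called, 391 to 633 higher and 642 to 1191 lower. The fold change of HDAC8 was 0.0042 after median centring, against −0.05 as reported. With a library left out, fold changes ran from −0.0293 to 0.0517 for STAG1, −0.0249 to 0.129 for SMC3, −0.111 to 0.0258 for NIPBL, −0.0020 to 0.20 for ESCO1 and −0.0044 to 0.11 for SGO1. Other members moved by over 1.5 times without turning when a library was left out. STAG2 ran from −0.104 (without siMTA1 library 1) to −0.0179 (without siMTA1 library 3). RAD21 ran down to 0.0792 and PDS5B to 0.0796 (both without control library 3), and PDS5A to −0.0622 (without siMTA1 library 3). Scaling moved members as well. Median centring, which put the median of all tested genes at 0.0053, gave −0.0020 for STAG2, −0.0047 for NIPBL and −0.041 for PDS5A. It gave 0.065 for STAG1, 0.101 for SMC3 and 0.138 for ESCO2. The replicate numbers are shared by the groups, but the labels do not say that a number pairs libraries, so the reported fit has no pairing. Deviations of same-numbered libraries correlated at 0.331, 0.0219 and 0.219, and those of differently numbered libraries at −0.277 to 0.0712. Whether the numbers mark pairs cannot be told from these values. The replicate block called 3031 genes. Not every library correlated best with its own number, and besides SMC1A and ESPL1 the block also brought RRM2 (adjusted p = 0.0446) and NSMCE3 (adjusted p = 0.0471) past the threshold. Among the 10 genes the implied counting error was largest for ESCO2 and ESPL1, at up to 4.54% and 3.71%. The within-group SD of ESPL1 was larger, at 7.81% of the mean in control and 7.11% with siMTA1.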

Other observations

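The meiotic counterparts of the cohesin subunits were low. REC8, the kleisin that replaces RAD21 in meiosis, was the member of this set that reached the tested level, with control values of 1.39, 1.33 and 1.41 FPKM and siMTA1 values of 1.86, 1.79 and 1.26 FPKM (log2 fold change 0.14, limma adjusted p = 0.308). It was thus close to ESCO2 in level. RAD21L1 was at 0.14 to 0.34 FPKM in control and at 0.23 to 0.39 FPKM with siMTA1. SMC1B, the meiotic counterpart of SMC1A, was at 0.04, 0.10 and 0.09 FPKM and at 0.16, 0.14 and 0.11 FPKM, and STAG3 at 0.08, 0.04 and 0.05 FPKM and at 0.13, 0.16 and 0.08 FPKM. These 3 genes were below the mean of 1 FPKM required for the test.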
